A study of Mus musculus with 11 samples.

Results

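The genes described here act in the removal of dying cells by their neighbours. They are 10 genes of 24411 in the table of counts, listed by name for their known roles, with earlier results of these data known: Mfge8, Gas6 and Pros1 (bridging molecules), Axl, Mertk, Tyro3 and Scarb1 (receptors), and Elmo1, Dock1 and Rac1 (engulfment machinery). RNA came from 11 samples of testis, from untreated mice at 20 weeks of age. WT mice (n = 4 samples, C57Bl/6J) carried both iron regulatory protein genes. Irp1-/- mice (n = 4) had a global knockout of Aco1, which encodes IRP1. Irp2-/- mice (n = 3) had a knockout of Ireb2, which encodes IRP2. The Irp1-/- line had been bred on a C57Bl/6J background, with WT controls from matings of heterozygous mice, while the source of the Irp2-/- mice is not given in the sources used here. The RNA was that of whole testis, so the values do not show in which testicular cell a difference arose. The comparisons ask whether loss of either iron regulatory protein goes with a different level of the engulfment genes in the adult testis.

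In the testis, many germ cells that begin spermatogenesis die on the way, and the dying cells are taken up by Sertoli cells, the somatic cells of the seminiferous epithelium. A dying cell exposes phosphatidylserine on its surface, and secreted bridging molecules hold this lipid with one end and a receptor on the phagocyte with the other. The receptors then signal through ELMO and DOCK proteins to the small GTPase RAC1, which reshapes the actin cytoskeleton around the prey. IRP1 and IRP2 are RNA-binding proteins that adjust the translation and stability of transcripts of iron metabolism.

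All 10 genes were measured above the filter on low counts in all 3 comparisons. The total count per sample lay between 15902473 and 22451417, and levels are given as CPM, the count scaled to a common library total. Read counts are not independent molecules, and precision given from counts covers counting error only. The labels number the samples within a genotype and do not name the animal, so p-values measure only the spread between these samples. The targeted genes followed their labels. Aco1 lay at 7.98 to 9.19 CPM in Irp1-/- and 9.59 to 12.9 CPM in WT testes (log2 fold change -0.45, SE 0.098, edgeR quasi-likelihood test with Benjamini-Hochberg adjustment over all genes tested, adjusted p = 0.0158). Ireb2 lay at 61.3 to 64.4 CPM in Irp2-/- and 132 to 142 CPM in WT testes (log2 fold change -1.16, SE 0.050, edgeR adjusted p = 2.84e-13). These counts are sums over the whole gene and do not show which exons the remaining reads came from.

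Ranked by level per transcript length, the receptor for lipoproteins and phosphatidylserine, Scarb1, was the most abundant of the 10 genes in WT testes. Its level was 66.7 ± 7.01 RPKM (SD, n = 4), where RPKM is the CPM divided by the length of the mean coding transcript in units of 1000 bases. The bridging molecules Mfge8 and Gas6 came next, at 29.6 ± 0.937 and 27.6 ± 1.87 RPKM, and the ranges of their 4 WT samples overlapped. Elmo1 (20.5 ± 1.06 RPKM), Axl (15.2 ± 1.00 RPKM) and Tyro3 (10.9 ± 0.567 RPKM) followed, with no overlap between neighbours in this order. Rac1 (9.08 ± 0.490 RPKM), Pros1 (8.11 ± 0.178 RPKM), Dock1 (3.40 ± 0.358 RPKM) and Mertk (1.43 ± 0.199 RPKM) were the lowest, again without overlap between neighbours. The length used for a gene matters for the middle of this order. With the longest transcript, Elmo1 moved from rank 4 to rank 7, Tyro3 from 6 to 4, Pros1 from 8 to 6 and Rac1 from 7 to 8, while Scarb1, Mfge8, Gas6, Axl, Dock1 and Mertk kept their ranks. In both mutants the ranks by mean transcript length were those of WT.

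Mfge8 encodes milk fat globule EGF factor 8, a secreted protein that binds phosphatidylserine on the dying cell and integrins on the phagocyte. It was the only one of the 10 genes that passed the test (adjusted p under 0.05) in any of the 3 comparisons. Over all genes tested, 1.02% passed in Irp1-/- against WT, 1.21% in Irp2-/- against WT and 4.69% in Irp1-/- against Irp2-/-. Among WT testes it stood at 60.1, 60.1, 60.4 and 64.0 CPM in replicates 1 to 4. In the Irp1-/- testes it stood at 87.5, 66.1, 79.99 and 82.7 CPM in replicates 1, 2, 6 and 7. In the Irp2-/- testes it stood at 70.7, 57.9 and 63.0 CPM in replicates 1 to 3. Every Irp1-/- value was above every WT value, with replicate 2 the closest to WT, and the Irp2-/- values lay on both sides of the WT range. The mean rose from 61.2 ± 1.94 CPM (SD, n = 4) in WT to 79.1 ± 9.16 CPM (SD, n = 4) in Irp1-/- testes, a log2 fold change of 0.35 (SE 0.062, 95% interval 0.22 to 0.48, edgeR adjusted p = 0.00671). This is 1.28-fold, below the 2-fold change (absolute log2 fold change of 1) that the study asked of its listed genes. In Irp2-/- testes the mean was 63.9 ± 6.45 CPM (SD, n = 3), with a log2 fold change against WT of 0.05 (95% interval -0.08 to 0.17, edgeR adjusted p = 0.917). The mutants compared with each other gave 0.31 for Irp1-/- against Irp2-/- (95% interval 0.13 to 0.50), which missed the threshold (edgeR adjusted p = 0.0555).

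**Figure D1:**
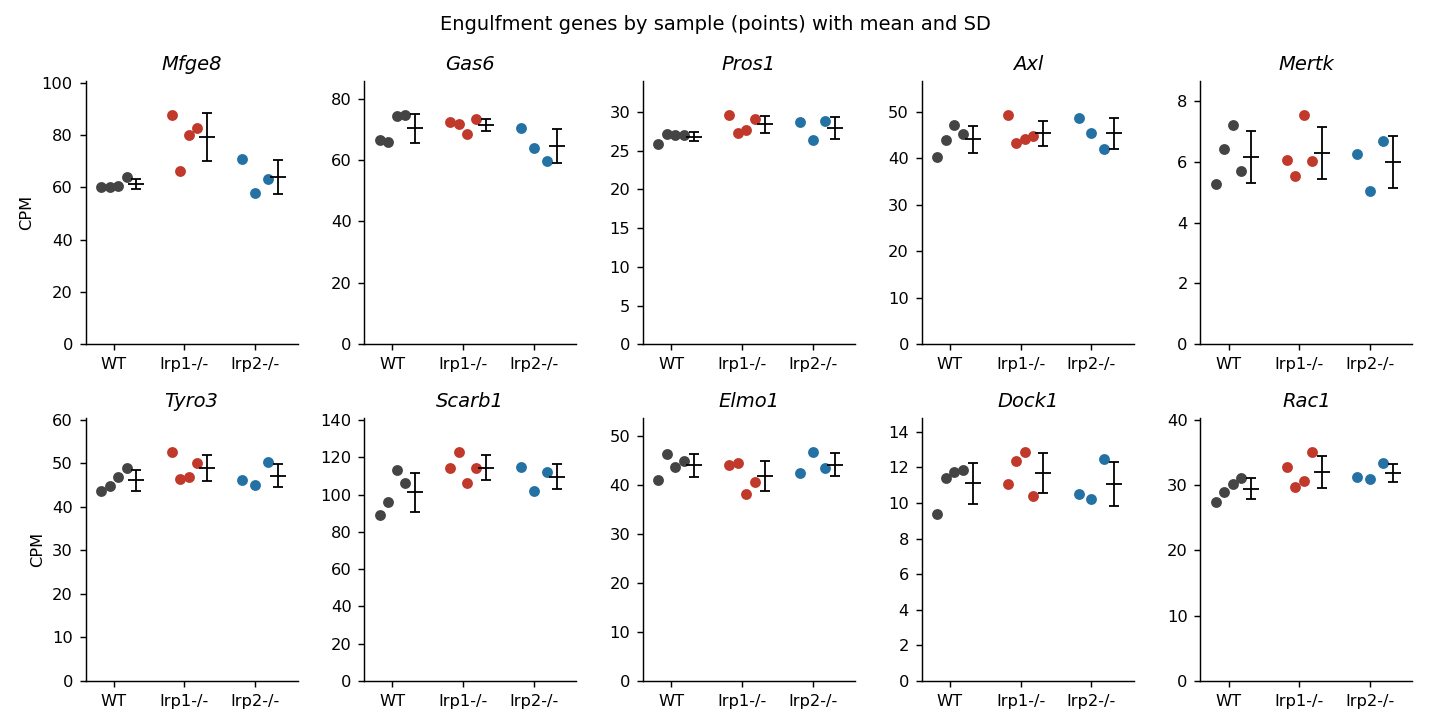
Level of each of the 10 engulfment genes in CPM (linear axis from 0) in the 4 WT, 4 Irp1-/- and 3 Irp2-/- testes. Each point is a sample in order of replicate number, the short line is the group mean and the bar its SD; the Irp1-/- points of Mfge8 (66.1 to 87.5 CPM) all sit above the WT points (60.1 to 64.0 CPM), and most other genes overlap between genotypes.

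The higher Mfge8 level in Irp1-/- testes did not rest on any one of the samples. With each sample left out in turn, the log2 fold change lay between 0.30 (without Irp1-/- replicate 1) and 0.43 (without Irp1-/- replicate 2), and the adjusted p of edgeR between 3.57e-06 and 0.0378. The difference between the mutants depended on the samples and the fit. It missed the threshold in 5 of the 7 fits without a sample, with the highest adjusted p of edgeR at 0.213 without Irp2-/- replicate 2. It passed without Irp1-/- replicate 2 (log2 fold change 0.39, edgeR adjusted p = 0.00216), without Irp2-/- replicate 1 (0.40, edgeR adjusted p = 0.0189) and with DESeq2 on all samples (0.32, adjusted p = 0.00619). The spread of Mfge8 differed among genotypes. Its coefficient of variation between WT samples was 3.16%, against 3.06% from counting alone, while it was 11.6% against 2.57% in Irp1-/- and 10.1% against 2.78% in Irp2-/- testes.

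**Figure D2:**
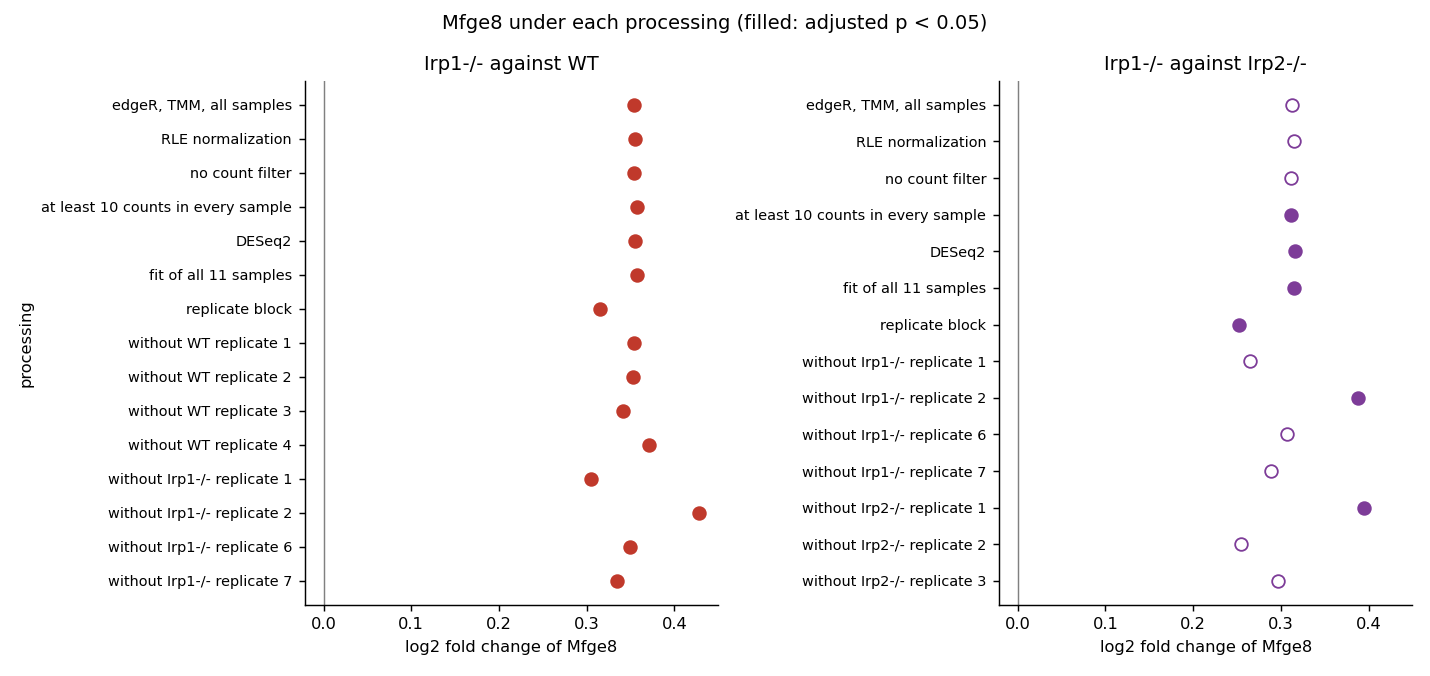
Log2 fold change of Mfge8 in Irp1-/- against WT (left) and Irp1-/- against Irp2-/- (right) under each processing and with each sample left out; filled points had an adjusted p under 0.05. All 15 points on the left are filled and lie between 0.30 and 0.43, and open and filled points mix on the right. In each panel the replicate block point rests only on replicates 1 and 2, the numbers that both genotypes hold.

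The sequences before the gene starts of the bridging molecules are shown because Mfge8 passed the test and Gas6 and Pros1 did not. They are the 250 bases before the start of each gene, 5′ to 3′ on the gene's strand, from RefSeq on GRCm38.p6 (the mm10 build of the counts), with capitals marking each GC box. They lie at chr7:79149061-79149310 (minus strand) for Mfge8, at chr8:13494536-13494785 (minus strand) for Gas6 and at chr16:62854057-62854306 (plus strand) for Pros1.
Mfge8: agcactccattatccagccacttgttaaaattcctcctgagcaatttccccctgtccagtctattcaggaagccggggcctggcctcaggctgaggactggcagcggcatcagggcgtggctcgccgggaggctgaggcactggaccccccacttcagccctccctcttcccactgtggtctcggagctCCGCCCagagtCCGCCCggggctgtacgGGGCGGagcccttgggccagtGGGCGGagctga
Gas6: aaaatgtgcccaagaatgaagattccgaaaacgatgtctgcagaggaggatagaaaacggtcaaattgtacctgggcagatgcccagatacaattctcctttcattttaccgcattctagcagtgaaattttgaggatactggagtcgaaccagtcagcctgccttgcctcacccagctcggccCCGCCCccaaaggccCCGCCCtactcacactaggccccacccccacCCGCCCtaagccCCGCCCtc
Pros1: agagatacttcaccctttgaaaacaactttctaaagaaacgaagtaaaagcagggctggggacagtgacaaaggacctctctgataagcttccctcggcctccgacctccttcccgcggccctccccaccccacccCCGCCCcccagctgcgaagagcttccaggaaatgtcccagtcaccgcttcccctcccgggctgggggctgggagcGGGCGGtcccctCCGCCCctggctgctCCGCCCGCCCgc
The GC box searched for was GGGCGG or its reverse complement CCGCCC, a motif that SP1-type factors are known to bind. Mfge8 held 4 of them, Gas6 4 and Pros1 5, of which a pair near the Pros1 start overlapped each other. Of all 32851 promoter windows of the same length, 32.7% held at least 1 GC box and 4.09% held at least 4. All 8 genes with a RefSeq window (Scarb1 and Rac1 had none) held at least 1, between 1 in Axl and 5 in Pros1, although the further downstream of the Elmo1 windows held none. None of the 8 held CCAAT (33.8% of all windows), AGGTCA (14.0%) or CACGTG (6.02%) on either strand, and TATAAA (12.4%) was found in Elmo1. A match is a description of the letters and not evidence of binding. The windows of Mfge8, Gas6 and Pros1 were 65.2%, 54.8% and 64.4% G and C, against a median of 52.4% over all windows. Whether GC boxes bear on the level of any of these genes was not tested.

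Gas6 and Pros1 encode the vitamin K-dependent ligands that tether phosphatidylserine to the TAM receptors TYRO3, AXL and MERTK. Gas6 stood at 66.6, 65.8, 74.3 and 74.6 CPM in WT, at 72.3, 71.7, 68.6 and 73.3 CPM in Irp1-/- and at 70.5, 63.9 and 59.6 CPM in Irp2-/- testes. The genotypes overlapped, with the lowest values in Irp2-/- replicates 2 and 3. Its log2 fold change was 0.01 in Irp1-/- against WT (95% interval -0.09 to 0.10, edgeR adjusted p = 0.964). It was -0.14 in Irp2-/- against WT (95% interval -0.26 to -0.01), and missed the threshold after adjustment (edgeR adjusted p = 0.450). Between the mutants Gas6 was 0.15 higher on the log2 scale in Irp1-/- (95% interval 0.03 to 0.27, edgeR adjusted p = 0.176). Without Irp2-/- replicate 1 this difference was 0.22 and passed (edgeR adjusted p = 0.0260).

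Pros1 stood at 25.9, 27.1, 27.1 and 27.0 CPM in WT, at 29.6, 27.3, 27.7 and 29.1 CPM in Irp1-/- and at 28.6, 26.4 and 28.9 CPM in Irp2-/- testes. The Irp1-/- values lay above all WT values by a narrow margin. The log2 fold change was 0.07 (95% interval -0.05 to 0.18), which did not pass the test (edgeR adjusted p = 0.672). Per transcript length, Gas6 made up 77.3 ± 1.08% of the summed Gas6 and Pros1 level in WT (SD, n = 4), 76.5 ± 0.556% in Irp1-/- (SD, n = 4) and 74.9 ± 1.86% in Irp2-/- testes (SD, n = 3). Gas6 was therefore the more abundant TAM ligand transcript in every sample.

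Of the TAM receptors, which are receptor tyrosine kinases, Axl and Tyro3 made up nearly all of the summed level. Axl held 55.1 ± 0.687%, Tyro3 39.7 ± 1.22% and Mertk 5.19 ± 0.535% of it per mean transcript length in WT (SD, n = 4). With the longest transcript of each gene, Axl and Tyro3 were level at 46.7% and 46.8%, and Mertk remained the lowest at 6.46%. MERTK is the TAM receptor best known for uptake by Sertoli cells and by the retinal pigment epithelium. Its transcript rested on 96 to 150 counts per sample, and its spread was the largest of the 10 genes (coefficient of variation 13.9% in WT, 9.66% from counting alone). The 95% interval of its log2 fold change in Irp1-/- against WT ran from -0.23 to 0.27. Counting error and spread between samples both enter this interval, and it does not exclude differences of that size.

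Axl, the TAM receptor with the highest affinity for GAS6, ranged from 40.2 to 47.1 CPM in WT, from 43.3 to 49.2 CPM in Irp1-/- and from 42.1 to 48.6 CPM in Irp2-/- testes. Tyro3 ranged from 43.6 to 49.1 CPM in WT, from 46.3 to 52.6 CPM in Irp1-/- and from 45.1 to 50.3 CPM in Irp2-/- testes. The genotypes overlapped for both genes and for Mertk. None of the TAM receptors passed the test in any comparison. Their 9 log2 fold changes lay between -0.05 and 0.08, with edgeR adjusted p between 0.622 and 0.982.

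Scarb1 encodes the class B scavenger receptor SR-BI, which binds phosphatidylserine on dying germ cells in Sertoli cells and takes up cholesterol from lipoproteins in Leydig cells, the steroid-producing cells between the tubules. It stood at 89.3, 96.1, 113 and 106 CPM in WT, at 114, 123, 106 and 115 CPM in Irp1-/- and at 115, 102 and 112 CPM in Irp2-/- testes. WT replicates 1 and 2 were low, and WT replicate 3 lay within the Irp1-/- range. The log2 fold change in Irp1-/- against WT was 0.17 (95% interval 0.04 to 0.29, unadjusted p = 0.0121), which missed the threshold after adjustment (edgeR adjusted p = 0.233). Against WT, Irp2-/- testes gave 0.10 (95% interval -0.03 to 0.23, edgeR adjusted p = 0.714). The same WT replicates had the lowest summed CPM of 8 Leydig markers. That sum was 766 and 739 in WT replicates 1 and 2 and 1088 and 1018 in WT replicates 3 and 4. It ranged from 1020 to 1197 in Irp1-/- and from 774 to 1055 in Irp2-/- testes, and its part in the Scarb1 values was not tested.

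The engulfment machinery did not pass the test in any comparison. ELMO1 and DOCK1 form the exchange factor that loads RAC1 with GTP beneath the receptor, and ELMO1 is known to support uptake of apoptotic germ cells by Sertoli cells. Elmo1 ranged from 41.1 to 46.5 CPM in WT, from 38.2 to 44.6 CPM in Irp1-/- and from 42.5 to 46.8 CPM in Irp2-/- testes. It was the only one of the 10 genes with a log2 fold change below 0 in Irp1-/- against WT, at -0.08 (95% interval -0.20 to 0.03, edgeR adjusted p = 0.603). Dock1, measured with 165 to 277 counts per sample, ranged from 9.37 to 11.9 CPM in WT, from 10.4 to 12.9 CPM in Irp1-/- and from 10.2 to 12.5 CPM in Irp2-/- testes. Its log2 fold changes were 0.07 in Irp1-/- (95% interval -0.13 to 0.26) and -0.02 in Irp2-/- testes (95% interval -0.24 to 0.19) against WT. Rac1 ranged from 27.5 to 31.1 CPM in WT, from 29.7 to 35.1 CPM in Irp1-/- and from 30.9 to 33.4 CPM in Irp2-/- testes. Its log2 fold changes against WT were 0.10 (95% interval -0.02 to 0.23, edgeR adjusted p = 0.508) and 0.09 (95% interval -0.03 to 0.22, edgeR adjusted p = 0.727). How reads shared between Rac1 and its close relatives were assigned is not given in the sources used here.

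Counted together, 1 of the 10 genes was called in Irp1-/- against WT, in the higher direction, where 0.581% of the 16002 genes tested were called higher and 1.02% in either direction. At an unadjusted p under 0.05 the count was 2 (Mfge8 and Scarb1), against 12.1% of all genes tested. Mfge8 and Pros1 were higher in every Irp1-/- sample than in every WT sample, 2 of the 10 genes, against 3.77% of all genes tested. In this comparison 9 of the 10 log2 fold changes were above 0, with a median of 0.07, while over all genes tested 49.7% were above 0. In Irp2-/- against WT, none of the 10 was called by edgeR, where 1.21% of 16154 genes were, and DESeq2 also called 0. At an unadjusted p under 0.05 the count was 1 (Gas6), against 9.42% of all genes tested. Of the 10 log2 fold changes 6 were above 0, against 51.3% of all genes tested, and their median was 0.02. In Irp1-/- against Irp2-/-, none of the 10 was called by edgeR, where 4.69% of 16281 genes were, and DESeq2 called 1 (Mfge8). At an unadjusted p under 0.05 the count was 2 (Mfge8 and Gas6), against 16.3% of all genes tested. Of the 10 log2 fold changes 9 were above 0, against 49.4% of all genes tested, and their median was 0.07. The comparisons share samples pairwise, so their values are not independent.

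**Figure D3:**
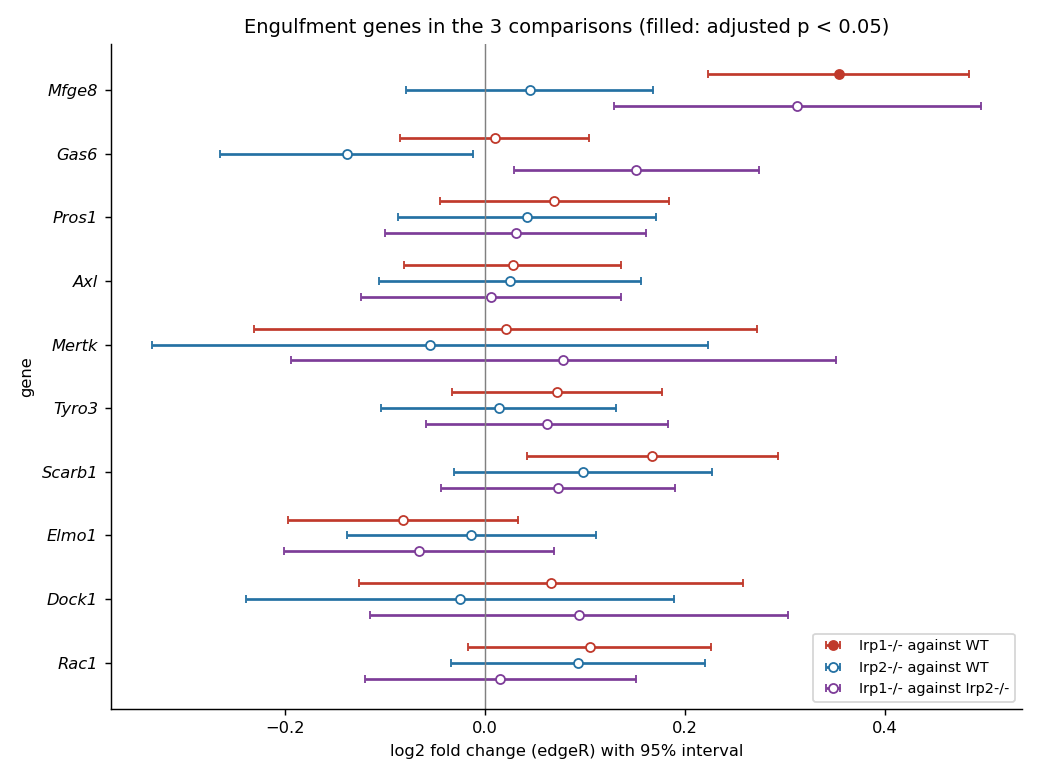
Log2 fold change (edgeR) of each of the 10 genes in the 3 comparisons, with bars for the 95% interval; filled points had an adjusted p under 0.05. The only filled point is Mfge8 in Irp1-/- against WT (0.35, interval 0.22 to 0.48), and the intervals of the receptors and the machinery include 0 apart from Scarb1 in Irp1-/- against WT.

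None of the 10 genes lies on chromosome 4, which carries Aco1, or chromosome 9, which carries Ireb2. Mfge8 lies at chr7:79133768-79149060 of GRCm38.p6, and Axl and Dock1 are on the same chromosome.

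Mfge8 is known as a product of Sertoli cells and of the epididymis, so markers of testicular cell types were read beside it. In whole tissue, fewer cells of a type and less RNA per cell cannot be told apart. The summed CPM of 10 Sertoli markers was 1107, 1122, 1210 and 1239 in WT, 1422, 1244, 1278 and 1285 in Irp1-/- and 1297, 1127 and 1210 in Irp2-/- testes. Every Irp1-/- sum was above every WT sum, as for Mfge8, and the Irp2-/- sums overlapped with WT. Most of each sum came from Clu alone, at 784.6 to 871.1 CPM in WT, 891.5 to 1022 CPM in Irp1-/- and 799.5 to 929.6 CPM in Irp2-/- testes. All 10 Sertoli markers had log2 fold changes above 0 in Irp1-/- against WT (0.04 to 0.30), as did 49.7% of all genes tested. Of these, edgeR and DESeq2 each called 1 (1.02% of all genes tested were called by edgeR), Clu, a secreted chaperone and the most abundant of the list (log2 fold change 0.16, SE 0.041, edgeR adjusted p = 0.0473). Clu lost the call in 5 of 8 fits without a sample (highest edgeR adjusted p 0.307, without Irp1-/- replicate 1) and in the fit of all 11 samples (edgeR adjusted p = 0.109). In Irp1-/- against Irp2-/-, 9 of the 10 Sertoli markers had log2 fold changes above 0, against 49.4% of all genes tested. Of these, edgeR called 3, Rhox5 (0.36), Fshr (0.83) and Cst9 (0.19), where 2.92% of all genes tested were called higher. They lost the call in 4 to 6 of 7 fits without a sample, and DESeq2 called only Cst9 of the 3.

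The mean sum of the Sertoli markers was 1.12 times that of WT in Irp1-/- testes, and mean Mfge8 was 1.29 times that of WT. Mfge8 per 1000 CPM of summed Sertoli markers was 54.3, 53.6, 49.9 and 51.7 in WT replicates 1 to 4. The same ratio was 61.5, 53.2, 62.6 and 64.4 in Irp1-/- replicates 1, 2, 6 and 7, and 54.5, 51.4 and 52.1 in Irp2-/- testes. Of the Irp1-/- samples, replicate 2 lay within the WT range and the others above it, so relative to these markers the groups overlapped. Because Clu made up most of these sums, the ratio is largely one of Mfge8 to Clu. The part of the Sertoli markers in the Mfge8 difference was not tested beyond these ratios.

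**Figure D4:**
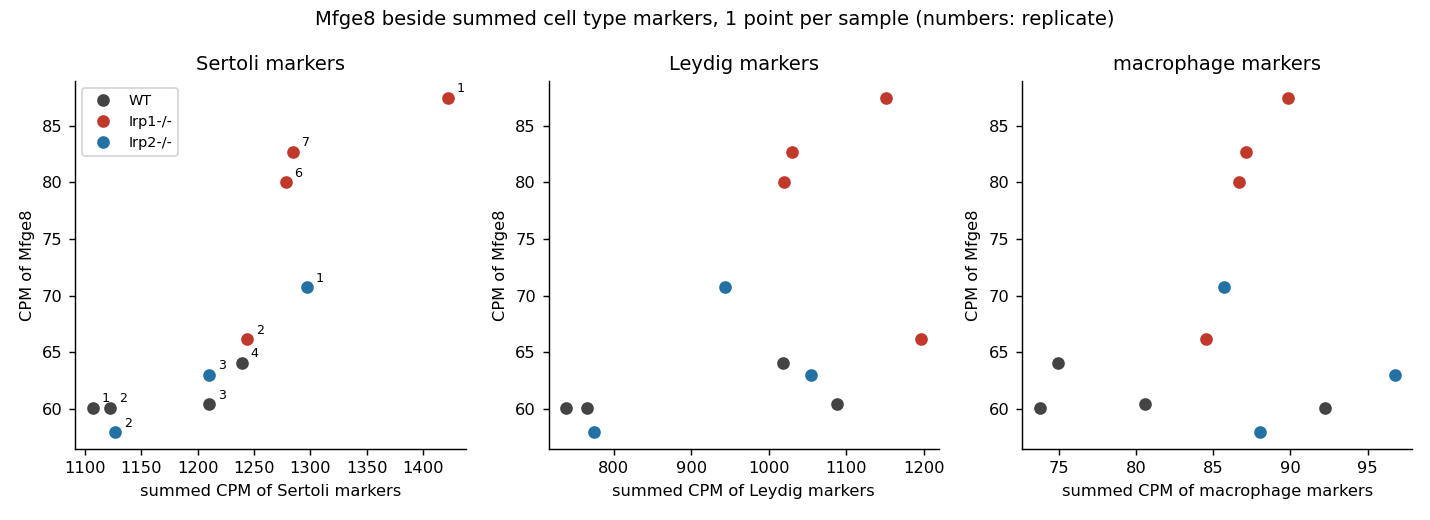
Mfge8 level (CPM) against the summed CPM of Sertoli, Leydig and macrophage markers, 1 point per sample, coloured by genotype; the axes do not start at 0 and numbers in the left panel are replicates. Irp1-/- points lie at 1244 or above for Sertoli markers, and those of replicates 1, 6 and 7 lie well above 64.0 CPM, the highest WT value of Mfge8.

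Sums of 2 other marker lists also separated Irp1-/- from WT testes. The 7 spermatocyte markers, led by Piwil1, summed to 1475 to 1573 CPM in WT, 1447 to 1469 CPM in Irp1-/- and 1514 to 1534 CPM in Irp2-/- testes. The 5 blood markers, led by the globin gene Hba-a1, summed to 30.3 to 36.3 CPM in WT, 37.4 to 56.7 CPM in Irp1-/- and 25.1 to 38.6 CPM in Irp2-/- testes. Spermatocyte sums were thus lower and blood sums higher in every Irp1-/- sample than in every WT sample, and their part in the Mfge8 difference was not tested. In this comparison edgeR and DESeq2 each called 0 genes of either list, and 3 spermatocyte and 0 blood markers had an unadjusted p under 0.05 in edgeR, against 12.1% of all genes tested. Hbb-bs, of the blood list, was at 0 in every sample.

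Leydig and macrophage sums overlapped between Irp1-/- and WT testes, as did those of peritubular myoid, endothelial, epididymal, spermatogonial and spermatid markers. Leydig markers summed to 739 to 1088 CPM in WT and 1020 to 1197 CPM in Irp1-/- testes. The mean Leydig sum in Irp1-/- testes was 1.22 times that of WT. Of the 8 Leydig markers, 7 had log2 fold changes above 0 (median 0.39), as did 49.7% of all genes tested. Mfge8 per 1000 CPM of summed Leydig markers overlapped, at 55.5 to 81.35 in WT and 55.26 to 80.28 in Irp1-/- testes. The part of the Leydig markers in the Mfge8 difference was not tested. Of 8 Leydig markers edgeR called 1 in Irp1-/- against WT (1.02% of all genes tested were called) and DESeq2 called 2, Hsd3b1 and Hsd17b3. Hsd3b1, which acts in steroid synthesis, ranged from 29.3 to 42.9 CPM in WT and from 45.0 to 53.5 CPM in Irp1-/- testes, without overlap. Of all genes tested, 3.77% were higher in Irp1-/- without overlap. The gene called by edgeR was Hsd17b3, which makes testosterone (log2 fold change 0.37, SE 0.084, edgeR adjusted p = 0.0232). It lost the call in 4 of 8 fits without a sample (highest edgeR adjusted p 0.124, without Irp1-/- replicate 1) and in the fit of all 11 samples (edgeR adjusted p = 0.103). In Irp1-/- against Irp2-/-, edgeR called Hsd3b1 (log2 fold change 0.68) and Insl3 (0.27) of the 8 Leydig markers. It also called the peritubular myoid marker Actg2 (0.19) and the spermatogonial marker Sall4 (-0.58), where 4.69% of all genes tested were called. These 4 calls were lost in 2, 6, 5 and 5 of 7 fits without a sample, and their part in the Mfge8 values was not tested. Macrophage markers, led by Mrc1, summed to 73.8 to 92.3 CPM in WT, 84.5 to 89.9 CPM in Irp1-/- and 85.7 to 96.8 CPM in Irp2-/- testes. Of 6 epididymis markers, Lcn5, Lcn8, Adam7 and Spint4 were at 0 in every WT and Irp1-/- sample, and the list summed to at most 1.53 CPM in any sample, against at least 57.9 CPM of Mfge8.

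Among the genes whose level ran most like Mfge8 over the 11 samples, 4 are given as a description, without a test. Pearson's r on log2 CPM was 0.96 for Vwa1, 0.95 for Tmem184a, 0.94 for Zyx and 0.93 for Sep15 (now Selenof), out of 15927 genes. Vwa1 encodes a protein of the extracellular matrix and Zyx the focal adhesion protein zyxin. Vwa1 ranged from 6.41 to 7.60 CPM in WT, from 7.62 to 10.5 CPM in Irp1-/- and from 6.61 to 7.43 CPM in Irp2-/- testes. After genotype means were removed, r with Mfge8 was 0.89 to 0.95 for these 4 genes, which were chosen on the same samples. The samples differed in total count and may have differed in tissue makeup, and r across them can carry both. Among the other engulfment genes r with Mfge8 was highest for Pros1 (0.76) and Tyro3 (0.66) and lowest for Elmo1 (-0.54).

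The rest of the engulfment pathway was read from a list of 101 further genes in 7 roles, of which 88 passed the filter on low counts in each comparison with WT and 90 between the mutants. In Irp1-/- against WT, edgeR called 0 of 88 and DESeq2 called 0, while 10 had an unadjusted p under 0.05. Over all genes tested 1.02% were called by edgeR and 12.1% had an unadjusted p under 0.05. The median log2 fold change of the 88 was 0.03, against -0.0008 over all genes tested. In Irp2-/- against WT, 2 of 88 were called, Lrp1 and Dock5, both higher, where 0.371% of all genes tested were called higher. Between the mutants 1 of 90 was called, Lgals3, higher in Irp1-/-, where 2.92% of all genes tested were called higher.

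Lrp1 encodes an endocytic receptor that works with calreticulin on the phagocyte surface. It stood at 43.7, 41.9, 48.5 and 51.0 CPM in WT, at 48.8, 52.3, 47.9 and 48.5 CPM in Irp1-/- and at 57.4, 56.9 and 55.6 CPM in Irp2-/- testes. All 3 Irp2-/- values were above all values of the other genotypes. Of all genes tested, 982 of 16154 were higher in every Irp2-/- sample than in every WT sample, as were 7 of the 88 further genes. The log2 fold change in Irp2-/- against WT was 0.27 (SE 0.060, edgeR adjusted p = 0.0184). Lrp1 lost the call without WT replicate 1 (edgeR adjusted p = 0.0610), WT replicate 2 (0.102) or Irp2-/- replicate 2 (0.101).

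Dock5 encodes an exchange factor for RAC1 related to DOCK1. It stood at 31.3, 31.2, 31.98 and 30.8 CPM in WT, at 34.2, 33.1, 34.1 and 30.8 CPM in Irp1-/- and at 34.5, 41.4 and 41.0 CPM in Irp2-/- testes. The Irp2-/- values exceeded the others, replicate 1 only slightly. The log2 fold change in Irp2-/- against WT was 0.29 (SE 0.066, edgeR adjusted p = 0.0216), and the call was lost in 5 of 7 fits without a sample (highest edgeR adjusted p 0.180, without Irp2-/- replicate 2).

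Lgals3 encodes galectin-3, a secreted lectin that can act as a ligand of MERTK. Its level was low, at 2.14, 2.02, 2.25 and 2.28 CPM in WT, 2.59, 3.16, 3.21 and 4.21 CPM in Irp1-/- and 2.06, 1.68 and 1.78 CPM in Irp2-/- testes, which corresponds to 33 to 71 counts per sample. Irp1-/- values were above all values of the other genotypes. Of all genes tested, 1089 of 16281 were higher in every Irp1-/- than in every Irp2-/- sample, and 3.77% were higher in every Irp1-/- than in every WT sample. The log2 fold change in Irp1-/- against Irp2-/- was 0.83 (SE 0.19, edgeR adjusted p = 0.0118), and without Irp2-/- replicate 2 the adjusted p of edgeR was 0.0728. Against WT, Irp1-/- testes gave 0.58 (SE 0.17), which missed the threshold (edgeR adjusted p = 0.115).

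The most abundant gene of each of the other roles did not pass the test in any comparison (Lrp1, described above, was the most abundant of the other receptors). Among signals of exposure, Calr, the eat-me signal calreticulin, stood at 609 to 637 CPM in WT, 600 to 665 CPM in Irp1-/- and 649 to 674 CPM in Irp2-/- testes. Sirpa, the receptor of the do-not-eat-me signal CD47, stood at 3.998 to 5.22 CPM in WT and 4.86 to 6.02 CPM in Irp1-/- testes. The bridging molecule Tub (tubby) stood at 21.8 to 24.2 CPM in WT and 22.1 to 27.0 CPM in Irp1-/- testes. The log2 fold changes of these genes in Irp1-/- against WT were 0.01, 0.19 and 0.08, and the lowest Irp2-/- value of Calr was above the highest WT value. Ptk2, the focal adhesion kinase, stood at 70.6 to 75.2 CPM in WT and 69.6 to 71.7 CPM in Irp1-/- testes. Lamp1, a membrane protein of lysosomes, stood at 533 to 543 CPM in WT and 521 to 546 CPM in Irp1-/- testes. Rxra, a nuclear receptor partner in the lipid response after uptake, stood at 39.4 to 44.2 CPM in WT and 37.5 to 46.6 CPM in Irp1-/- testes. Their log2 fold changes in Irp1-/- against WT were -0.04, -0.03 and 0.03.

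**Figure D5:**
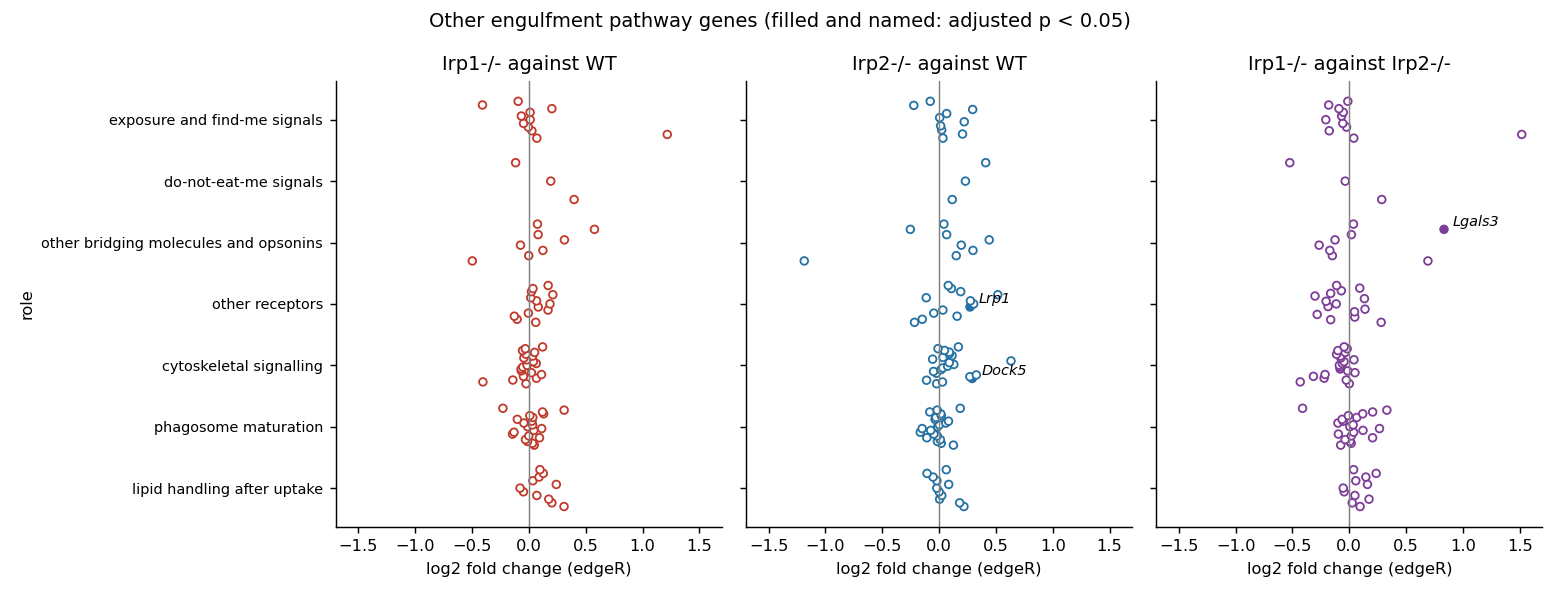
Log2 fold change (edgeR) of the further engulfment pathway genes that passed the filter on low counts, in rows by role and panels by comparison; each point is a gene, and filled, named points had an adjusted p under 0.05. The named points are Lrp1 (0.27) and Dock5 (0.29) in Irp2-/- against WT and Lgals3 (0.83) in Irp1-/- against Irp2-/-.

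Several phagocyte receptors and partners stayed under the filter on low counts in all 3 comparisons. They were Xkr4, Tulp1, Timd4, Havcr2, Cd300lf, Cd300lb, Megf10, Ager, Rac3 and Rab17, with at most 0.986 CPM in any sample (Havcr2). Timd4 and Havcr2 encode the phosphatidylserine receptors TIM-4 and TIM-3 of immune cells. The genes under the filter were not tested, so whether they differed between genotypes is not known.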

How the data were processed

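Testis polyadenylated RNA of 4 WT, 4 Irp1-/- and 3 Irp2-/- samples was sequenced as stranded paired-end libraries. The authors deposited the raw, unnormalized count of reads on each gene, obtained with bcl2fastq (2.20.0.422 in the submitters' processing notes, another version in the study's methods) and the nf-core RNA-seq pipeline on mm10. The counter is not given in the sources used here, so counts may be rounded estimates, and alignment choices are part of every value. All per-sample columns were used and grouped by their labels. A letter in the column names (R for Irp1-/- replicate 6, L for the others) is not explained.

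Each comparison was fitted on its own samples over all genes passing edgeR's filter, with edgeR 4.0.16 in R 4.3.3 (TMM, robust quasi-likelihood test, Benjamini-Hochberg adjustment, threshold 0.05), and the script was tested on simulated data. Total counts were 15902473 to 22451417. CPM scales a count by its library's total, and RPKM divides it by transcript length from GENCODE M21. Gene positions and promoters came from RefSeq (GRCm38.p6); 187 of 188 list entries matched by symbol and 1 by an older symbol.

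The genes and lists were chosen with earlier results of these data known. Named were the 10 genes, Aco1, Ireb2, the called genes and the most abundant gene of each role of the further list, the 5 genes most correlated with Mfge8 (1 of them is not reported here), and the called or most abundant markers. Alternatives were RLE normalization, no filter, at least 10 counts in every sample, DESeq2 1.42.0, a fit of all 11 samples, a replicate block and leaving out each sample.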

Additional observations from a re-analysis of the deposited data

Results flagged for a closer look

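Among 42 groups of 4 samples tested for a sample apart from the rest (levels of the 10 engulfment genes and sums of 11 marker lists), 2 were marked by the gap of the sample to its nearest neighbour, and chance alone marks about 1 in 20. For Mfge8, WT replicate 4 stood at 64.05 CPM against 60.09 to 60.38 CPM in the other WT samples, a gap of 0.925 of the range, and it was still below the lowest Irp1-/- value of 66.1 CPM. For Pros1, WT replicate 1 stood at 25.91 CPM against 27.03 to 27.14 CPM in the other WT samples, a gap of 0.908 of the range.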

How the results depend on the processing

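Under RLE normalization, no filter, at least 10 counts in every sample, DESeq2, the fit of all 11 samples and the fits without a sample, Mfge8 stayed called in Irp1-/- against WT. Of 400 recomputed log2 fold changes of the 10 genes, 363 kept direction and side of the threshold, 8 newly passed it and 29 changed sign, all of them uncalled values. In Irp1-/- against Irp2-/-, 1 of the 10 genes (Mfge8) was called with at least 10 counts in every sample, with DESeq2 and with all 11 samples. In the same comparison the further list gave 5 calls without a filter, 2 with at least 10 counts in every sample and 4 with all 11 samples, against 1.

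With each sample left out in turn, genes called ranged from 55 to 216 (Irp1-/- against WT, 164 with all samples), 118 to 223 (Irp2-/- against WT, 196) and 414 to 763 (Irp1-/- against Irp2-/-, 763). Counts moved by over 1.5 times without WT replicate 2 (84), WT replicate 4 (106), Irp1-/- replicate 1 (55) or Irp1-/- replicate 6 (102) in the first, without Irp2-/- replicate 2 (118) in the second, and without Irp1-/- replicate 1 (471) or Irp2-/- replicate 2 (414) in the third. Members of the 10 called ranged from 1 to 1, 0 to 0 and 0 to 2, and further list genes from 0 to 0, 0 to 2 and 1 to 4. Log2 fold changes that changed sign ranged, in Irp1-/- against WT, from -0.0125 to 0.0339 (Gas6), -0.0101 to 0.0542 (Axl) and -0.0779 to 0.10 (Mertk). In Irp2-/- against WT they ranged from -0.0382 to 0.10 (Mfge8), -0.0304 to 0.0809 (Axl), -0.13 to 0.0473 (Mertk), -0.0266 to 0.0404 (Tyro3), -0.0644 to 0.0155 (Elmo1) and -0.11 to 0.0194 (Dock1). In Irp1-/- against Irp2-/- they ranged from -0.0017 to 0.0508 (Pros1), -0.0499 to 0.0616 (Axl), -0.0235 to 0.15 (Mertk) and -0.029 to 0.0486 (Rac1).

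Replicate numbers did not pair the samples: deviations from the group means of 7 same-numbered pairs correlated at -0.0109 to 0.0773, and not every sample correlated best with its own number. With a replicate block, genes called were 439, 132 and 852 in the 3 comparisons, and in the first 315 of them were higher, against 93 of 164 without the block. With the block, 2 of the 10 genes were called in Irp1-/- against WT (Mfge8 at 0.32 and Scarb1 at 0.33), 1 in Irp1-/- against Irp2-/- (Mfge8 at 0.25), and 1 and 3 further list genes in Irp2-/- against WT (Lrp1) and Irp1-/- against Irp2-/- (Abca1, Ctsl and Xkr9). Dock5 (0.28, edgeR adjusted p = 0.120) and Lgals3 (0.62, edgeR adjusted p = 0.161) lost their calls with the block. The block turned the sign of Mertk (-0.0378, Irp1-/- against WT), Dock1 (0.0088, Irp2-/- against WT) and Axl (-0.0231, Irp1-/- against Irp2-/-). A sample whose number the other genotype lacked did not enter the genotype difference of the block fit. That difference rested on replicates 1 and 2 in the comparisons with Irp1-/-, and on replicates 1 to 3 in Irp2-/- against WT. The block values thus do not come from all samples, and the cause of these changes was not tested further. Depth limited genes with few counts, such as Mertk and Lgals3.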
